A study of Citrus maxima and Citrus sinensis with 4 samples.

Results

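The B-toxic leaf libraries of *C. sinensis* ('Xuegan' sweet orange), a species tolerant to B-toxicity, and of *C. grandis* (sour pummelo, listed under the name Citrus maxima), an intolerant species, were compared over all 699 miRNA loci of the deposited count table. These are 2 of the 4 libraries of the series. B-toxic *C. sinensis* and B-toxic *C. grandis* seedlings received nutrient solution with 400 μM boric acid for 15 weeks, and control *C. sinensis* and control *C. grandis* seedlings received 10 μM over the same time. All seedlings grew in sand in a greenhouse, and RNA came from mature leaves at the same relative height of the plant. The labels give the seedlings as 5 weeks old at transplanting with 10 further weeks before treatment, whereas the methods of the study give 11 weeks. Each library was made from the mixed RNA of 5 replicates, so each condition has 1 library. The test applied to a pair of libraries therefore compares those libraries and not the species or the conditions, and intervals cover counting error only. Reads copied from the same molecule by PCR were counted separately, which can make the intervals too narrow. With 1 library per condition the species difference has no replicate check. A lower share of the cells that make a miRNA cannot be told apart from less of it per cell.

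Plant miRNAs are small RNAs, mostly of 21 nt, that are cut by Dicer-like proteins from the stem of a hairpin transcript and loaded into Argonaute proteins, where they pair with messenger RNAs that are then cleaved or translated less. Many families are shared by most land plants and act on transcription factors, auxin signalling or nutrient transport, whereas other miRNAs are known from a few related species only. Boron is needed for cross-links of pectin in the cell wall and harms leaves when it accumulates. Since the counts hold no messenger RNA, the leaf label could not be checked against marker genes. The species labels were checked only on a few loci with reads in a single species, as described further on.

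The 699 loci carried 243277 mature reads in B-toxic *C. sinensis* and 325441 in B-toxic *C. grandis*. The control libraries held 346600 for *C. sinensis* and 373890 for *C. grandis*. RPM values are scaled to these totals, so that 1 read stands for 4.11 RPM in B-toxic *C. sinensis* and 3.07 RPM in B-toxic *C. grandis*, and a count of 0 allows up to 3 reads, or 12.3 and 9.22 RPM in the same order. A mature sequence was listed at more than 1 locus in 69 cases, over 189 loci, and 27 of these sequences had unequal counts at their loci in the B-toxic libraries. Log2 ratios are *C. sinensis* over *C. grandis*. Calls required an FDR below 0.01 by Fisher's exact test, two-sided, together with at least a 2-fold ratio. Loci are named as in the deposited table, with the name the study gave (ci-miRN for non-conserved miRNAs) or the homology label, and were not placed on a genome here.

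The sequences with the largest species ratios are shown first, because related sequences recur among them. Capitals mark the seed, bases 2 to 8 from the 5′ end. The first 4 belong to a set in which 3 were called higher and the reverse-complementary sequence was called lower in B-toxic *C. sinensis*.
ci-miRN17 (scaffold_3_618738): gUACUGUAgcugugagggggacgu
scaffold_3_479557: gUACUGUAgccgugagggggacgc
scaffold_7_1151387, label ghr-miR7495a: gUACUUUAgccgugagggggacgu
scaffold_2_310050: aUCCCCCUcccagcuacaguaccc

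A further set shares the run gaugcaacugug or a variant of it and contained calls in both directions. The complementary ci-miRN19 is shown with them.
sequence listed at 10 loci, scaffold_10_1542597 among them: aCGGCUGGaugcaacuguggcacg
scaffold_2_309694: uGGAUGCAacuguggcacgguacc
ci-miRN16 (scaffold_6_1047339): cUGGAUGCaacugugguacgg
miR6232a (scaffold_9_1471032, label sbi-miR6232a-3p): uGGAUGUAacuguggcacggu
ci-miRN19 (scaffold_1_3807): uACCGUGCcacaguuguauccagc

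The members of widely conserved families with a call, on which the account by family turns, had these sequences.
miR827 (scaffold_3_411387): uUAGAUGAccaucaacaaaca
miR858b (scaffold_2_324894): cUCGUUGUcuguucgaccuug
miR393a (scaffold_4_690029): uCCAAAGGgaucgcauugauc
miR530 (scaffold_3_487292): uGCAUUUGcaccugcaucuug
miR395a (scaffold_3_446075): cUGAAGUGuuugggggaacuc
miR397a (scaffold_6_1101840, label osa-miR397b): uUAUUGAGugcagcguugau
miR394a (scaffold_5_786996): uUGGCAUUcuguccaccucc
miR160a (scaffold_2_331813): uGCCUGGCucccuguaugccg
miR160a (scaffold_4_632152): uGCCUGGCucccuguaugcca
miR156a (scaffold_1_49268): uGACAGAAgagagggagcau

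Non-conserved sequences with a large difference in species ratio between the treatments are given last, since the comparison of treatments rests largely on them and on miR395a.
ci-miRN4 (scaffold_2_176533): aAGCUGGAcuuguggagagugugc
ci-miRN3a (scaffold_1366_1560038): aACGGGGGauucuuuugguuggg
ci-miRN8 (scaffold_6_1076798): aGGAAUUGuguauuuuugaaaaag
ci-miRN24a (scaffold_6_1058084): uCGCAGGGgagaugggaccaac

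Between the B-toxic libraries, 645 loci had a read in either, of which 61 were called higher in *C. sinensis* (9.46%) and 97 lower (15.0%), which are 46 and 68 distinct sequences. The largest ratios reached a log2 of 9.05 in ci-miRN17 and -6.35 at scaffold_8_1287840, and the median over the 506 loci with a ratio was -0.46. Under other scalings the log2 ratio of every locus moved by the same amount, by 0.32 with edgeR's TMM, by 0.30 with DESeq2's size factors and by -0.39 with the clean reads of each library. The split of calls then became 85 higher and 73 lower with TMM, 84 and 73 with DESeq2's size factors, and 43 and 126 with the clean reads. All 61 loci called higher were also called higher with TMM, whereas 73 of the 97 called lower were. A single locus, scaffold_2_271215, held 30.6% of the mature reads of B-toxic *C. sinensis* and 17.6% of those of B-toxic *C. grandis*. Without it in the totals, an alternative chosen after seeing the data, 73 loci were called higher and 76 lower. No called locus could change its direction under these scalings, since calls needed at least a 2-fold ratio and every shift was below that.

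**Figure D1:**
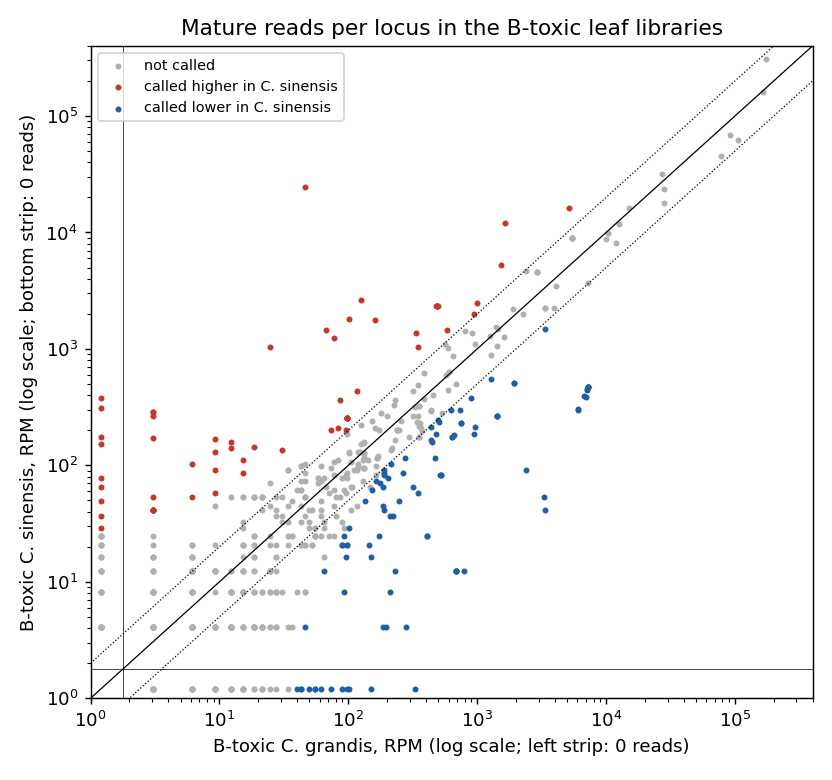
RPM of each locus in B-toxic *C. sinensis* (vertical axis) and B-toxic *C. grandis* (horizontal axis), both on log scales, with loci of 0 reads in the strip beside the axis. The solid line marks equal RPM and the dotted lines a ratio of 2; 61 loci called higher (red) and 97 called lower (blue) in *C. sinensis* lie outside the dotted lines.

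How much single plants varied was not measured. When a biological coefficient of variation of 0.2 was assumed in edgeR's exact test, 39 of the loci called higher and 65 of those called lower were still called, and with 0.4 they were 16 and 30. In an edgeR quasi-likelihood fit over all 4 libraries with species and treatment as terms, which takes the species difference over both treatments together, 54 loci were higher and 54 lower in *C. sinensis* at an FDR below 0.05. Of these, 42 and 50 were among the loci called between the B-toxic libraries.

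By number of sequences, 28 of the 281 tested sequences with a miRBase homology label were called higher (9.96%) and 26 lower (9.25%). Among the 247 without a label, 18 were called higher (7.29%) and 42 lower. Of the sequences called higher, 26 of 46 had 24 nt (56.5%) and 16 had 21 nt. Of those called lower, 25 of 68 had 24 nt (36.8%) and 28 had 21 nt. Over all 528 tested sequences, 52.5% had 24 nt and 25.8% had 21 nt. A 5′ U was found in 41.3% of the sequences called higher, 44.1% of those called lower and 38.8% of all tested. The called sequences thus held more 21 nt forms than the tested ones in both directions, and the share of 24 nt forms was below that of all tested sequences only among those called lower. No test was applied to these shares.

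In reads, mature sequences of 21 nt made up 53.4% of the total in B-toxic *C. sinensis* (exact binomial 95% interval 53.2 to 53.6%) and 47.3% in B-toxic *C. grandis* (47.1 to 47.4%). This order rested on the most-read locus, scaffold_2_271215, which has 21 nt, since without it the 21 nt share was 32.8% (32.6 to 33.1%) in B-toxic *C. sinensis* and 36.0% (35.8 to 36.2%) in B-toxic *C. grandis*, an alternative chosen after seeing the data. Those of 22 nt made up 10.0% in B-toxic *C. sinensis* and 14.1% in B-toxic *C. grandis*. The 24 nt share was 9.01% (8.90 to 9.13%) in B-toxic *C. sinensis* and 11.2% (11.1 to 11.3%) in B-toxic *C. grandis* when reads were summed over loci. With each distinct sequence counted once, the order turned, with 9.42% (9.30 to 9.55%) in B-toxic *C. sinensis* and 5.17% (5.08 to 5.25%) in B-toxic *C. grandis*. This order rested largely on few sequences. Of the 20190 such reads in B-toxic *C. sinensis*, ci-miRN17 held 5944, scaffold_8_1263994 held 3954 and scaffold_3_479557 held 2924. In B-toxic *C. grandis* they held 15, 1669 and 539 of 13440. The order without them was not computed. Summed over loci, a 24 nt sequence with more reads in *C. grandis* entered 10 times, as described further on, and intervals of such sums are too narrow because repeated reads are taken as independent.

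**Figure D2:**
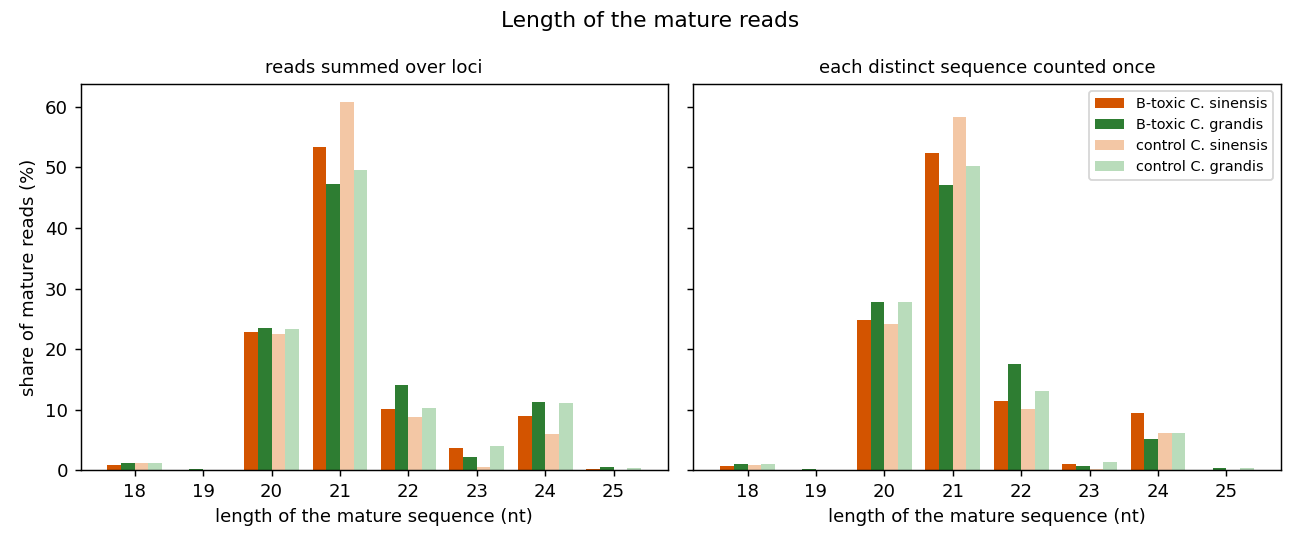
Share of mature reads (%) by length of the mature sequence in the 4 libraries, with reads summed over loci (left) and each distinct sequence counted once (right). The 24 nt bar of B-toxic *C. sinensis* is below that of B-toxic *C. grandis* on the left (9.01% and 11.2%) and above it on the right (9.42% and 5.17%).

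The largest species ratio belonged to ci-miRN17, a non-conserved 24 nt sequence with 5944 reads in B-toxic *C. sinensis*, against 15 in B-toxic *C. grandis*. Its log2 ratio was 9.05 (95% interval 8.33 to 9.89). In control leaves it had 3953 reads in *C. sinensis* and 32 in *C. grandis*. The related scaffold_3_479557, which shares the seed UACUGUA, had 2924 reads in B-toxic *C. sinensis*, against 539 in B-toxic *C. grandis*, a log2 ratio of 2.86 (2.73 to 2.99). The third of the set, labelled ghr-miR7495a, had 301 reads in B-toxic *C. sinensis* and 25 in B-toxic *C. grandis* (log2 ratio 4.01, 3.42 to 4.66). All of them were called higher in control *C. sinensis* too. Over 22 aligned bases ci-miRN17 differs by 2 mismatches from the reverse complement of scaffold_2_310050, and there the direction was the opposite. That locus had 0 reads in both *C. sinensis* libraries, against 108 in B-toxic and 83 in control *C. grandis*. Counted against 3 reads, it was 26.9-fold lower in B-toxic *C. sinensis*, and its 95% interval reached up to a log2 ratio of -4.43.

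Next in order was ci-miRN23 (scaffold_1_11546), a 21 nt sequence with 253 reads in B-toxic *C. sinensis* and 8 in B-toxic *C. grandis*, a log2 ratio of 5.40 (4.40 to 6.63). Its control level in *C. sinensis* was far above this, with 3057 reads, against 19 in control *C. grandis*. In the test of a difference between the treatments, described further on, ci-miRN23 was not called with the mature reads as totals or with TMM. It was called lower with DESeq2's size factors and with the clean reads. A sequence labelled ppt-miR1028a-5p, at 5 loci, had 572 reads at scaffold_5_770886 in B-toxic *C. sinensis*, where its RPM was 4.87-fold that of B-toxic *C. grandis* (log2 ratio 2.29, 2.03 to 2.55). By amount, the difference was also large at scaffold_8_1263994, a 24 nt sequence with 3954 reads in B-toxic *C. sinensis* and 1669 in B-toxic *C. grandis* (log2 ratio 1.66, 1.58 to 1.75). The homologue of lja-miR7528 (scaffold_3_480576) had 106 reads in B-toxic *C. sinensis* and 38 in B-toxic *C. grandis* (1.90, 1.35 to 2.47), but 83 in control *C. sinensis* and 98 in control *C. grandis*.

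Among the loci called lower, scaffold_8_1287840, a 21 nt sequence also listed at scaffold_5_857725, had 10 reads in B-toxic *C. sinensis*, against 1089 in B-toxic *C. grandis*, a log2 ratio of -6.35 (-7.41 to -5.46). The control libraries were alike, with 8 reads in *C. sinensis* and 873 in *C. grandis*. The homologue of bdi-miR7748b-3p (scaffold_2_195596) had 22 reads in B-toxic *C. sinensis* and 785 in B-toxic *C. grandis* (-4.74, -5.42 to -4.13), with 22 and 1132 in control *C. sinensis* and control *C. grandis*. A 20 nt sequence at 5 loci, scaffold_45_1548475 among them, had 6 reads in B-toxic *C. sinensis*, against 133 in B-toxic *C. grandis* (-4.05, -5.52 to -2.89). At 3 of its loci the counts were 20 in B-toxic *C. sinensis* and 169 or 170 in B-toxic *C. grandis*. The 23 nt scaffold_9_1523398 had 14 reads in B-toxic *C. sinensis* and 113 in B-toxic *C. grandis* (-2.59, -3.51 to -1.79). The homologue of smo-miR1098 (scaffold_3_525479) had 124 and 626 reads in the same libraries (-1.92, -2.21 to -1.64). These loci were also called lower in control *C. sinensis*.

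**Figure D3:**
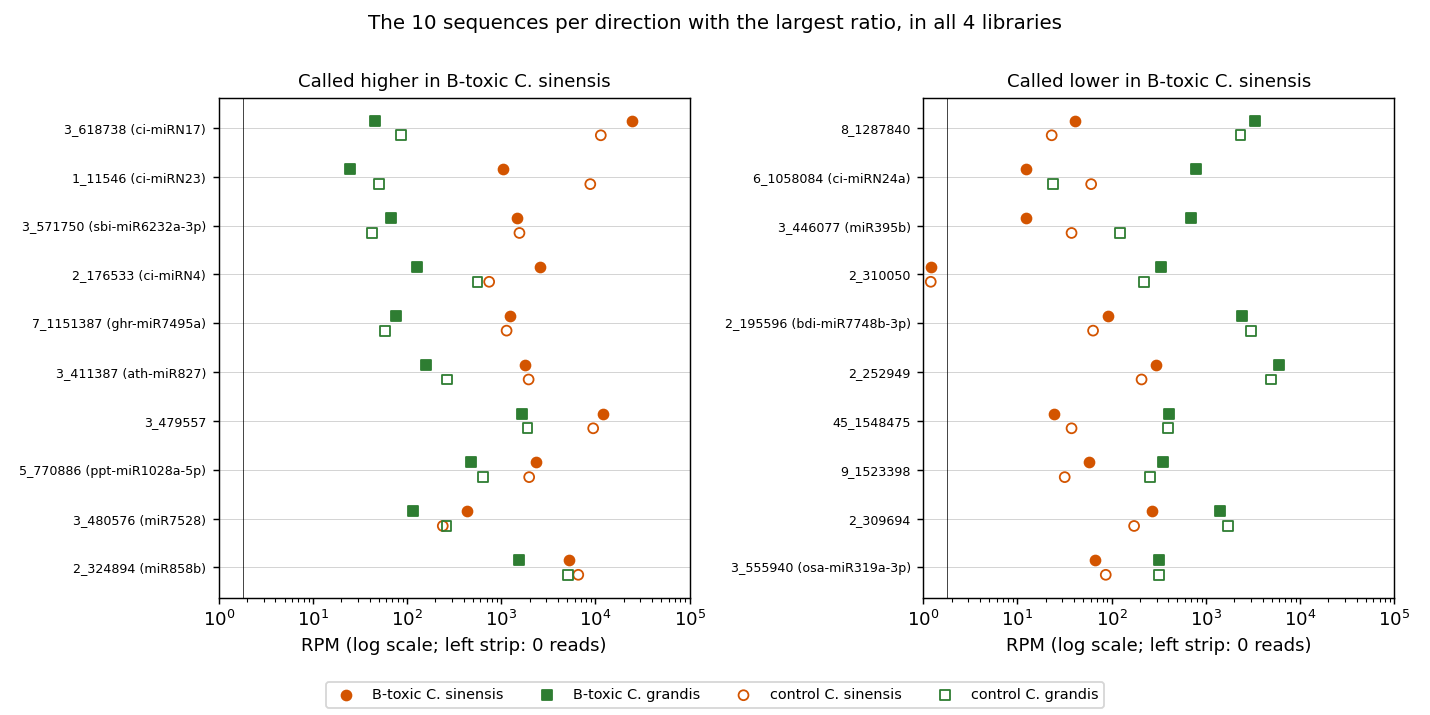
RPM on a log scale of the 10 sequences per direction with the largest species ratio, chosen from called loci whose higher library had 100 reads or more. Filled symbols are the B-toxic libraries and open symbols the control libraries, orange circles stand for *C. sinensis* and green squares for *C. grandis*; the control symbols of ci-miRN4, miR7528 and miR858b lie close together, and those of ci-miRN24a lie in the opposite order from the B-toxic ones.

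Reads in a single B-toxic library were found at 49 loci for *C. sinensis* and at 72 for *C. grandis*, most of them with few reads. At least 10 reads were present at 7 and 14 of these loci. Of the 7 in *C. sinensis*, 5 had 0 reads in control *C. grandis* as well, and of the 14 in *C. grandis*, 8 had 0 reads in control *C. sinensis*. Over all 699 loci, 597 had a read in control *C. grandis* and 587 in control *C. sinensis*. The control library of the other species, which was not used to find these loci, thus also lacked reads at 5 of the 7 and at 8 of the 14. Among the 8, control *C. grandis* itself had only 1 read at scaffold_9_1535429 and 4 at scaffold_6_1007978. Outside the 5, scaffold_4_722530 and scaffold_8_1358684 had 18 and 43 reads in control *C. sinensis*, against 3 and 1 in control *C. grandis*. This is a limited check on few loci. The counts were highest in B-toxic *C. sinensis* at scaffold_6_1087335, with 93 reads, and at scaffold_3_583479 (label mtr-miR2111l), with 76 reads, against 0 in B-toxic *C. grandis* for both. These were at least 41.5-fold and 33.9-fold higher, counted against 3 reads. In B-toxic *C. grandis*, scaffold_2_310050 was followed by scaffold_5_903013 with 49 reads and 0 in B-toxic *C. sinensis*, at least 12.2-fold lower in *C. sinensis*. Apart from scaffold_2_310050, these loci were named after their values were seen.

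Grouping the letters alone, by at most 2 substitutions over at least 16 aligned bases, gave 41 groups with 112 sequences, of which 18 groups held a call. Most of these 18 held a single called sequence and so could not hold both directions. Calls in both directions occurred in a single group, that of the run gaugcaacugug, with 13 sequences of 21 or 24 nt, 2 called higher and 5 called lower. Its most abundant form, listed at 10 loci, had 72 to 114 reads per locus in B-toxic *C. sinensis*, against 1967 to 2352 in B-toxic *C. grandis*. The log2 ratios were -4.35 (-4.71 to -4.01) at scaffold_2_252949 and -3.95 (-4.23 to -3.68) at scaffold_10_1542597. The form at scaffold_2_309694 had 65 reads in B-toxic *C. sinensis* and 464 in B-toxic *C. grandis* (-2.42, -2.81 to -2.04). The form at scaffold_3_555940, labelled osa-miR319a-3p but outside the miR319 family by the rule for members, had 16 and 103 reads (-2.27, -3.13 to -1.50). ci-miRN16 had 133 reads in B-toxic *C. sinensis* and 418 in B-toxic *C. grandis* (-1.23, -1.52 to -0.95), a call that was lost with TMM (-0.91). The intervals of the 10-locus form and of ci-miRN16 did not overlap, so the forms called lower differed in size beyond counting error.

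Of the forms called higher, miR6232a is listed at 3 loci with unequal counts. It had 354 reads in B-toxic *C. sinensis* and 22 in B-toxic *C. grandis* at scaffold_3_571750, a log2 ratio of 4.43 (3.81 to 5.12), but 332 and 110 reads at scaffold_9_1471032, a log2 ratio of 2.01 (1.70 to 2.34). At scaffold_5_893398 the counts were 442 in B-toxic *C. sinensis* and 33 in B-toxic *C. grandis*. The sources used here do not state how reads were assigned to these loci. The other form called higher, scaffold_5_770543 (label ahy-miR3509-3p), had 35 and 6 reads in B-toxic *C. sinensis* and *C. grandis*. The nearly complementary ci-miRN19 had 53 reads in B-toxic *C. sinensis* and 116 in B-toxic *C. grandis* (-0.71, -1.21 to -0.23) and was not called.

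The list of 27 conserved families had members in 20 of them, with 36 distinct sequences. Of these, 4 were called higher in B-toxic *C. sinensis* (11.1%), 6 were called lower (16.7%) and 26 were not called. Over all 528 tested sequences the shares were 8.71% and 12.9%. The median log2 ratio of the members was -0.24, against -0.34 over all tested sequences with a ratio. For miR159, miR390, miR398, miR399, miR857, miR162 and miR828 no locus met the rule for members. Since the families were listed with results of these data known, their counts were read as a description.

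Among the miRNAs of phosphate nutrition, miR827, which in Arabidopsis acts on a transcript for an SPX domain protein of phosphate homeostasis, had 433 reads in B-toxic *C. sinensis* and 52 in B-toxic *C. grandis*. Its log2 ratio of 3.48 (3.06 to 3.92) was the highest of all family members. It was also called higher in control *C. sinensis*, with 677 reads, against 99 in control *C. grandis*. miR2111a, whose Arabidopsis counterpart targets an F-box gene, had 17 and 8 reads in B-toxic *C. sinensis* and *C. grandis*, and its log2 ratio of 1.51 (0.22 to 2.93) was not called. With TMM it was called, at 1.83.

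For sulfate, miR395 targets ATP sulfurylases and a sulfate transporter in Arabidopsis. The sequence of miR395a, listed at 4 loci, had 3 reads in B-toxic *C. sinensis*, against 223 in B-toxic *C. grandis* (log2 ratio -5.80, -8.08 to -4.23). The control counts were 13 in *C. sinensis* and 47 in *C. grandis*. A rarer form that differs by G15C, counted from the 5′ end of miR395a (scaffold_3_446125), had 3 and 6 reads in B-toxic *C. sinensis* and *C. grandis*, too few to set it apart from either direction. Both libraries of *C. sinensis* thus held few miR395 reads, and the B-toxic library of *C. grandis* stood above the other 3.

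Of the copper-related miRNAs, miR397, which targets laccases, the enzymes that polymerise lignin, had 2 reads in B-toxic *C. sinensis* and 69 in B-toxic *C. grandis*. The log2 ratio was -4.69 (-7.76 to -2.78). Control *C. sinensis* had 0 reads and control *C. grandis* 11. miR408 (scaffold_5_862735, label ppt-miR408b), known to act on plantacyanin and laccase transcripts, had 1 read in B-toxic *C. sinensis* and 8 in B-toxic *C. grandis*, and its ratio was not called (-2.58, -8.05 to 0.32). The order of the species was the same for both in the control libraries.

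Calls in the auxin-related families went in different directions. Of 3 miR160 sequences, which repress auxin response factors, the 2 that differ from each other by G21A at their 3′ end were called lower. At scaffold_2_331813 the counts were 39 in B-toxic *C. sinensis*, against 144 in B-toxic *C. grandis* (-1.46, -2.01 to -0.95). Those at scaffold_4_632152 were 21 and 62 (-1.14, -1.93 to -0.41), a call that was lost with TMM (-0.82). In the control libraries both had more reads in *C. sinensis* (119 and 55) than in *C. grandis* (95 and 44), and neither was called. The most abundant miR160 sequence, at scaffold_6_1021446, had 214 reads in B-toxic *C. sinensis* and 420 in B-toxic *C. grandis* (-0.55, -0.80 to -0.31) and was not called. miR393a, which targets the TIR1 and AFB auxin receptors, was called higher, with 21 reads in B-toxic *C. sinensis*, against 5 in B-toxic *C. grandis* (2.49, 1.04 to 4.25). The precursor at scaffold_2_184151 shares at least 60 bases with that of miR393a but carries another mature sequence, which is largely complementary to miR393a. That sequence had 15 and 30 reads in B-toxic *C. sinensis* and *C. grandis*. Its log2 ratio of -0.58 had the opposite sign to that of miR393a and was not called. Of 3 miR167 sequences, which act on another group of auxin response factors, none was called, the most abundant having 16622 reads in B-toxic *C. sinensis* and 30040 in B-toxic *C. grandis* (-0.43, -0.46 to -0.41).

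In families that act on regulators of leaf development and ageing, calls were few. miR394a, which represses the F-box gene LCR, had 360 reads in B-toxic *C. sinensis* and 1092 in B-toxic *C. grandis* (-1.18, -1.36 to -1.01), lost with TMM (-0.86). Of 7 sequences of the miR156 family, which act on SPL transcription factors of phase change, a minor form at scaffold_1_49268 was called lower, with 60 and 163 reads in B-toxic *C. sinensis* and *C. grandis* (-1.02, -1.47 to -0.59, lost with TMM at -0.70). An abundant form of that family, at scaffold_1_84815, had 1983 reads in B-toxic *C. sinensis* and 3921 in B-toxic *C. grandis* (-0.56, -0.64 to -0.49). The form at scaffold_1_67512 had 270 and 184 reads, and its log2 ratio of 0.97 (0.70 to 1.25) was called with TMM (1.29). miR164a, which acts on NAC transcription factors, had 334 reads in B-toxic *C. sinensis* and 295 in B-toxic *C. grandis* (0.60, 0.37 to 0.83) and was not called. miR165, which acts on HD-ZIP III transcription factors of leaf polarity, had 15143 reads in B-toxic *C. sinensis* and 34103 in B-toxic *C. grandis* at scaffold_9_1471670 (-0.75, -0.78 to -0.72) and was called only with the clean reads as totals (-1.14). No member was called for miR171, miR319 or miR396. The same held for miR403, which is outside this set and acts on AGO2 of the silencing pathway.

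The remaining members called higher belonged to miR858 and miR530. miR858b, which targets MYB transcription factors of the phenylpropanoid pathway, had 1276 reads in B-toxic *C. sinensis*, against 501 in B-toxic *C. grandis*, a log2 ratio of 1.77 (1.62 to 1.92). Its control counts were 2279 in *C. sinensis* and 1893 in *C. grandis*. miR530, listed at 5 loci, had 62 and 32 reads in B-toxic *C. sinensis* and *C. grandis* (1.37, 0.74 to 2.04) and was not called with the clean reads (0.98). miR482c, whose family targets NBS-LRR disease resistance genes, had 839 reads in B-toxic *C. sinensis* and 1320 in B-toxic *C. grandis* (-0.23, -0.36 to -0.11) and was not called. Of the family calls, those of miR160, miR393a, miR394a, miR530 and the minor miR156 form were lost with an assumed coefficient of variation of 0.2, whereas miR827, miR395a and miR397a were still called with 0.4.

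**Figure D4:**
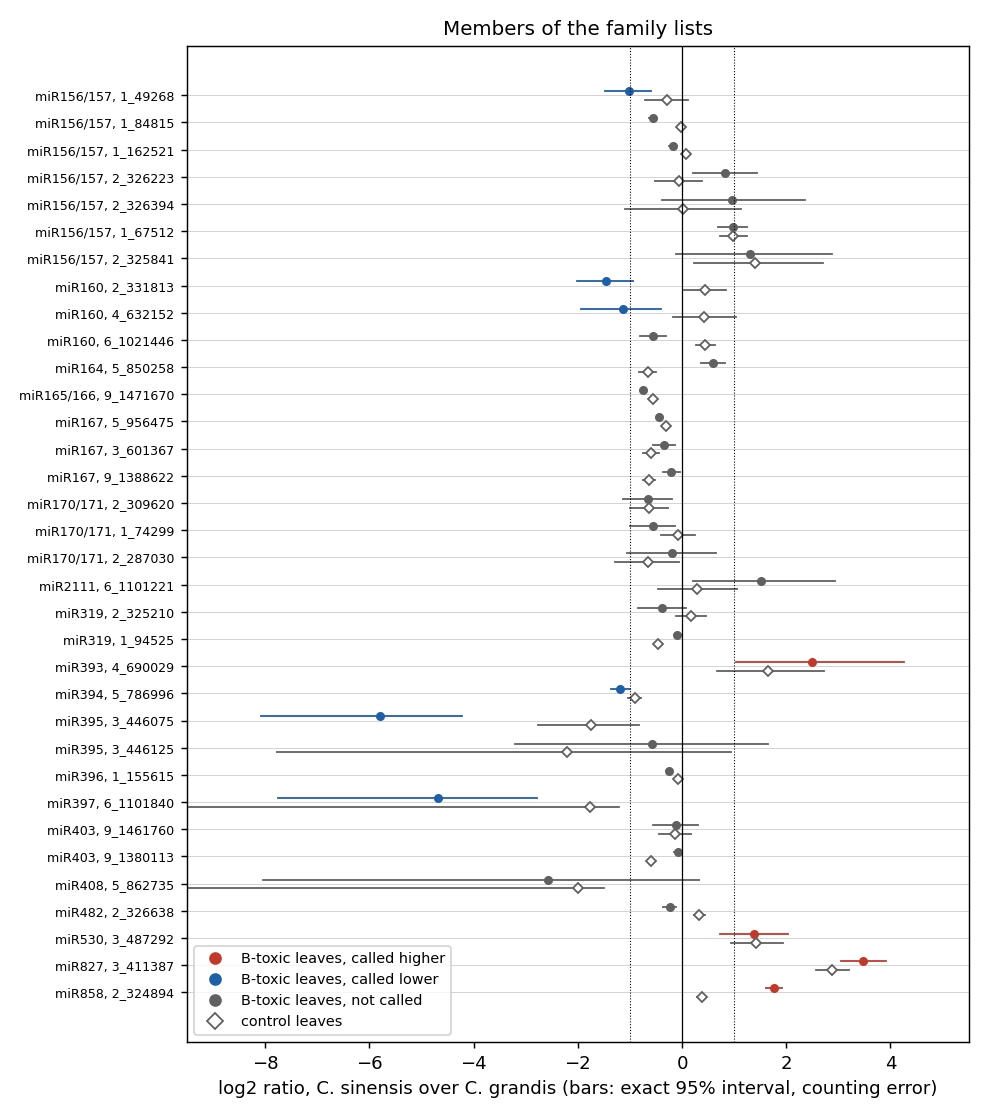
Log2 ratio of *C. sinensis* over *C. grandis* for each family member with a ratio, in B-toxic leaves (filled circles) and control leaves (open diamonds), with exact 95% intervals that cover counting error and run off the axis where a control library had 0 reads. Dotted lines mark a ratio of 2; miR827 (3.48) lies farthest to the right and miR395a (-5.80) farthest to the left among the B-toxic values.

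A list of 20 miRNAs was assayed by stem-loop qRT-PCR as well, and had been chosen from these libraries. In the reads, 3 of them were called higher in B-toxic *C. sinensis*, 9 lower and 8 were not called, with a median log2 ratio of -0.97. Over all 528 tested sequences, 8.71% were called higher and 12.9% lower, with a median of -0.34 among those with a ratio. miR160a was taken at scaffold_2_331813, called lower, which has that name in the study. The reverse-transcription primer listed for miR160a matches the 3′ end of scaffold_6_1021446 instead, which was not called. Besides those described above, ci-miRN13 (scaffold_2_316243) had 1 read in B-toxic *C. sinensis*, against 91 in B-toxic *C. grandis* (-6.09, -11.4 to -3.57). Both control libraries of ci-miRN13 held 2 reads, but the test of a difference between the treatments, described further on, gave no call for it. The non-conserved scaffold_8_1335941 had 28 and 154 reads in B-toxic *C. sinensis* and *C. grandis* (-2.04, -2.68 to -1.45). ci-miRN30a (scaffold_2_236665) had 56 reads in B-toxic *C. sinensis* and 244 in B-toxic *C. grandis* (-1.70, -2.15 to -1.28). Fewer reads lay behind ci-miRN31 (scaffold_6_1092568), with 5 and 32 (-2.26, -3.98 to -0.89), and miR2622.2 (scaffold_6_1029357), with 17 and 57 (-1.33, -2.20 to -0.52), in B-toxic *C. sinensis* and *C. grandis*, both called lower. The call of miR2622.2 was lost with TMM (-1.01) and with DESeq2's size factors (-1.02), and both calls were lost with an assumed coefficient of variation of 0.2. Not called were the homologue of ghr-miR2948-5p (scaffold_4_754831), with 6 and 25 reads, scaffold_3_499497, with 13 and 5, and miR396g (scaffold_1_74406), with 20 and 25, in the same order of species. The miR396g sequence had 29 reads in control *C. sinensis* and 8 in control *C. grandis*, where it was called higher in *C. sinensis*. Its difference between the treatments was not called either.

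The species ratios of the B-toxic leaves were then set beside those of the control leaves, which come from other libraries. Between the control libraries, 44 of 659 loci were called higher in *C. sinensis* (6.68%) and 119 lower (18.1%), or 62 and 76 by TMM, and 77 and 65 when scaled by DESeq2's size factors. Of the 61 loci called higher in B-toxic *C. sinensis*, 57 had a ratio above 1 in control leaves and 38 were called higher there. Of the 97 called lower, 90 had a ratio below 1 in control leaves and 69 were called lower there. None was called in opposite directions. Across 380 loci with at least 10 reads in each treatment, Pearson's correlation of the 2 log2 ratios was 0.82 and Spearman's was 0.71, as a description over loci, some of which share a sequence and so their reads. The median log2 ratio over these loci was -0.32 in B-toxic and -0.59 in control leaves.

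A difference between the treatments was tested for each locus by an exact conditional test of equal species ratios. Of 562 loci, the ratio was higher in B-toxic than in control leaves at 46 (8.19%) and lower at 31 (5.52%), and 32 of these 77 had ratios of opposite sign in the 2 treatments. The difference was at least 2-fold at 35 of them. The split was 30 and 32 with TMM, and 21 and 34 with either DESeq2's size factors or the clean reads. With an assumed coefficient of variation of 0.2 in an edgeR likelihood-ratio test, an alternative chosen after seeing the data, 11 loci differed, and with 0.4 a single one did. The 11 loci are those of 5 sequences, described next, and the spread between plants was not measured.

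The locus that differed under both assumptions was ci-miRN24a, with 3 reads in B-toxic *C. sinensis* and 256 in B-toxic *C. grandis*, but 21 in control *C. sinensis* and 9 in control *C. grandis*. Its species log2 ratio was -6.00 (-8.28 to -4.43) in B-toxic and 1.33 (0.14 to 2.64) in control leaves, a difference of -7.33 (-9.85 to -5.18). The B-toxic library of *C. grandis* stood far above the other 3. In the 23 nt ci-miRN3a, listed at 4 loci, it was control *C. sinensis* that stood apart, with 503 reads, against 3708 in control *C. grandis*. In B-toxic leaves it had 2167 reads in *C. sinensis* and 1772 in *C. grandis*, so that the difference of log2 ratios was 3.48 (3.32 to 3.65).

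The 24 nt ci-miRN4 had 634 reads in B-toxic *C. sinensis* and 41 in B-toxic *C. grandis*, a log2 ratio of 4.37 (3.91 to 4.86). The control counts were 258 in *C. sinensis* and 209 in *C. grandis*, with a species log2 ratio of 0.41 (0.14 to 0.68), and the difference was 3.96 (3.42 to 4.52, FDR 2.64e-64 in the exact conditional test). The large species ratio of ci-miRN4 was thus seen in B-toxic leaves and not in control leaves. For ci-miRN8 the counts were 34 in B-toxic *C. sinensis* and 4 in B-toxic *C. grandis*, against 27 in control *C. sinensis* and 36 in control *C. grandis* (difference 3.81, 2.06 to 5.90). miR395a, described above, was further apart between the species in B-toxic than in control leaves (difference -4.05, -6.54 to -2.09). These 5 differed with an assumed coefficient of variation of 0.2 (adjusted p of 0.00346 or lower in edgeR's likelihood-ratio test).

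Other called differences were smaller or rested on few reads. miR847 (scaffold_7_1148413) had 13 reads in B-toxic *C. sinensis* and 4 in B-toxic *C. grandis*, but 1 in control *C. sinensis* and 9 in control *C. grandis* (difference 5.18, 1.54 to 10.7), and with an assumed coefficient of variation of 0.2 its adjusted p was 0.031 in edgeR's likelihood-ratio test. The call of miR847 was kept with TMM and lost with DESeq2's size factors and with the clean reads. The species ratio of miR858b was higher in B-toxic leaves by 1.39 (1.22 to 1.57), and that of miR164a by 1.26 (0.98 to 1.54). For all 3 miR160 sequences it was lower in B-toxic leaves, with a difference of -1.90 (-2.58 to -1.23) at scaffold_2_331813, -1.57 (-2.57 to -0.60) at scaffold_4_632152 and -1.0 (-1.30 to -0.69) at scaffold_6_1021446. These calls of miR858b, miR164a and miR160 stood under all 3 other scalings, and none stood with an assumed coefficient of variation of 0.2. Each of the 3 scalings lowered the differences of all loci, so they could not weaken the negative ones of miR160. The differences of miR827 (0.59, 0.06 to 1.14), miR393a (0.84, -1.02 to 2.88) and miR530 (-0.05, -0.88 to 0.79) were not called. That of miR394a (-0.27, -0.49 to -0.06) was not called with the mature reads as totals but was called lower under all 3 other scalings. For miR397a the 0 reads in control *C. sinensis* left the difference without a size, and the exact conditional test gave no call.

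**Figure D5:**
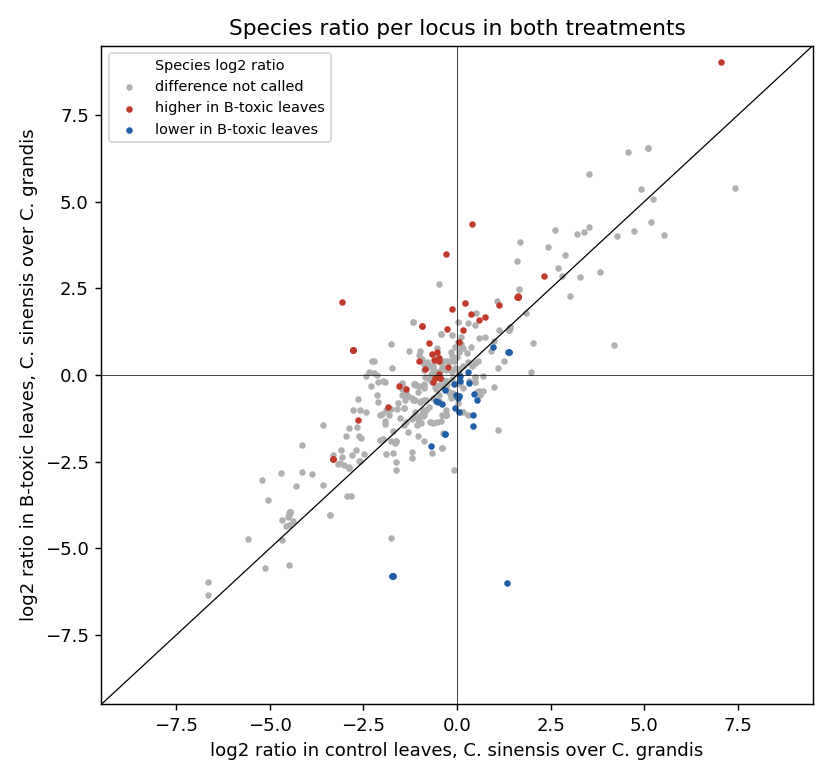
Species log2 ratio (*C. sinensis* over *C. grandis*) of 380 loci in B-toxic leaves (vertical axis) and control leaves (horizontal axis), with a count of 0 set to 3 reads. Loci called by the test of the difference are red (higher in B-toxic leaves) or blue (lower), and the line marks equal ratios; ci-miRN17 lies at the upper right (9.05 and 7.06) and ci-miRN24a lowest among the blue points (-6.00 and 1.33).

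Sequences that differ by a single substitution gave 10 pairs, of which 3 held a call. Only in the miR160 pair were both partners called, and both were lower. Apart from miR395 and miR160, the pair with a call was that of 24 nt sequences at scaffold_1_19129 and scaffold_2_241888, which differ by G15A counted from the 5′ end. The sequence at scaffold_1_19129 had 49 reads in B-toxic *C. sinensis* and 24 in B-toxic *C. grandis* and was called higher (1.45), whereas its partner had 24 and 53 reads (-0.72) and was not called. Precursors that share at least 60 bases in a row formed 77 pairs, and in 74 of these the mature sequence was the same.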

How the data were processed

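Small RNAs of 18 to 25 nt from 4 leaf libraries, each of mixed RNA from 5 replicates, were analysed. Per the study's methods, the authors filtered the reads, compared them with miRBase 21 and predicted miRNA loci with MTide on the C. clementina genome (JGI version 1.0), a species other than the 2 sampled; the effect of this was not tested. The deposited table holds raw read counts per locus that the authors did not normalize there, and the sources used here do not state how reads matching several loci were counted. Homology labels are the authors'. No genome was used here.

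For every locus, reads were set against the other mature reads of the library in a two-sided test (Fisher's exact), and p-values were adjusted by Benjamini-Hochberg over loci with at least 1 read in either library. Calls needed an FDR below 0.01 and a 2-fold ratio. A count of 0 was set to 3 reads for a bound, and no ratio was given where both counts were at most 3. Intervals are exact (Clopper-Pearson, 95%). Species ratios were compared between treatments by an exact conditional test. Scripts were tested on simulated data. Python 3.11.15, scipy 1.17.1, pandas 2.3.3, networkx 3.6.1, matplotlib 3.10.9, R 4.3.3, edgeR 4.0.16 and DESeq2 1.42.0 were used.

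Named were, per direction, the 10 distinct called sequences with the largest log2 ratio and at least 100 reads in the higher library, the 5 with the largest RPM difference and the 5 with the largest called difference between treatments with at least 10 reads in each, besides the 20 miRNAs assayed by qRT-PCR, the family members (label number, 19 to 22 nt, at most 4 substitutions over at least 17 aligned bases) and the pairs of similar sequences. Members and lists were chosen with earlier results of these data known, miR159 and miR390 were added to the families later, and sequence groups, complementary sequences and loci of a single species were chosen after the values were seen. Other totals, filters, thresholds, tests and assumed coefficients of variation were tried. For the difference between treatments, the assumed coefficients of variation and the 2-fold limit were added after seeing the data, as were totals and length shares without the most-read locus.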

Additional observations from a re-analysis of the deposited data

Results flagged for a closer look

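In 32 of the 72 named loci the species log2 ratio (*C. sinensis* over *C. grandis*) differed between B-toxic and control leaves. This was by an exact conditional test of the difference, at an FDR below 0.01. Over all 562 tested loci, the ratio was called higher in B-toxic leaves at 8.19% and lower at 5.52%. Some loci were named because this test called them, so the count among named loci is only a description. The test covers counting error in 1 library per condition, and 24 of the 32 were called likewise under all 3 other scalings. Among these 24, the B-toxic ratio minus the control ratio was positive in 9. It was 3.96 for ci-miRN4 (scaffold_2_176533), 3.81 for ci-miRN8 (scaffold_6_1076798), 3.48 for ci-miRN3a (scaffold_1366_1560038), 2.03 for miR7528 (scaffold_3_480576), 1.99 for ci-miRN17 (scaffold_3_618738), 1.39 for miR858b (scaffold_2_324894), 1.26 for miR164a (scaffold_5_850258), 0.90 at scaffold_8_1263994 and 0.51 for miR403 (scaffold_9_1380113).

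The other 15 of the 24 had a negative difference. Since each of the other scalings lowered the differences of all loci, they could not weaken these, and keeping the call was no check here. The difference was -7.33 for ci-miRN24a (scaffold_6_1058084), and -4.09 and -4.05 for miR395b and miR395a (scaffold_3_446077 and scaffold_3_446075). These miR395 loci carry the same mature sequence and are not independent. The difference was -1.90, -1.57 and -1.0 for the miR160 sequences at scaffold_2_331813, scaffold_4_632152 and scaffold_6_1021446. It was -1.39 for ci-miRN30a (scaffold_2_236665), -1.36 at scaffold_8_1335941, -1.26 for ci-miRN19 (scaffold_1_3807) and -0.57 for miR482c (scaffold_2_326638). Smaller differences were found in abundant conserved miRNAs, with -0.55 and -0.26 for the miR156 family (scaffold_1_84815 and scaffold_1_162521), -0.20 for miR165a (scaffold_9_1471670), -0.18 for miR396a (scaffold_1_155615) and -0.12 for miR167a (scaffold_5_956475).

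The remaining 8 were positive and lost their call under at least 1 other scaling. With TMM it was kept, and with DESeq2's size factors and the clean reads it was lost, for miR847 (scaffold_7_1148413, 5.18), miR6232a (scaffold_9_1471032, 0.89), scaffold_3_479557 (0.54) and miR319a (scaffold_1_94525, 0.37). It was lost under all 3 for miR2622.1a (scaffold_5_968392, 2.35), scaffold_2_309694 (0.90), the homologue of ppt-miR1028a-5p (scaffold_5_770886, 0.67) and miR167a at scaffold_9_1388622 (0.43). miR2622.1a had 22 reads in B-toxic *C. sinensis* and 11 in B-toxic *C. grandis*, against 17 in control *C. sinensis* and 35 in control *C. grandis*, and its adjusted p was 0.189 in edgeR's likelihood-ratio test when a coefficient of variation of 0.2 was assumed.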

How the results depend on the processing

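The loci called higher in B-toxic *C. sinensis* were 39 and 16, against 61, when coefficients of variation of 0.2 and 0.4 were assumed. Those called lower, 97, became 61 with a ratio of at least 4, 30 with a coefficient of variation of 0.4, and 54 and 46 in edgeR's quasi-likelihood fit and DESeq2 over 4 libraries. Between the control libraries, the 44 called higher became 77 with DESeq2's size factors, 28 with each sequence once, 25 with a ratio of at least 4, and 29 and 15 with the coefficients of variation of 0.2 and 0.4. The 119 called lower became 76 with TMM, 65 with DESeq2's size factors, 74 with a ratio of at least 4, and 69 and 30 with those coefficients. The 77 differences between treatments became 35 with a 2-fold limit, and 11 and 1 with those coefficients. The cause of the change with size factors was not tested.

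Of 39 named loci with a call, 34 kept it with TMM and with DESeq2's size factors, 38 with clean reads as totals, 30 with a coefficient of variation of 0.2 and 17 with 0.4. None changed direction, but the shifts by scaling were below the 2-fold limit of the calls and could reverse none. Log2 ratios of loci without a call changed sign with TMM and DESeq2's size factors, to 0.11 and 0.10 at scaffold_9_1388622, 0.062 and 0.048 at scaffold_1_155615, 0.24 and 0.22 at scaffold_9_1380113, 0.23 and 0.22 at scaffold_1_94525, 0.14 and 0.13 at scaffold_1_162521, 0.084 and 0.070 at scaffold_2_326638, 0.20 and 0.18 at scaffold_9_1461760, and 0.13 and 0.12 at scaffold_2_287030. With clean reads as totals, scaffold_1_74406 changed to -0.29. Control ratios moved by 0.46 with TMM, 0.62 with DESeq2's size factors and -0.08 with clean reads.

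No paired analysis was possible because each condition has 1 library and thus no replicate numbers to pair, and for the same reason no replicate was left out. The fits over 4 libraries hold treatment as a term beside species, with 1 residual degree of freedom. Loci with few reads are limited by depth, as a count of 0 allows up to 12.3 RPM in B-toxic *C. sinensis* and 9.22 RPM in B-toxic *C. grandis*.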
